A study of Homo sapiens with 34 samples.

Results

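A set of 40 genes of the endoplasmic reticulum (ER) that fold, modify, degrade or export secreted and membrane proteins were followed across 4 human prostate cell lines. They were taken by symbol from a list of ER chaperones, disulfide isomerases, translocon and signal peptidase subunits, degradation factors and COPII coat proteins. The list was chosen with earlier results of these data known. All 40 symbols were rows of the table of 26336 genes, and all 40 passed the filter on low counts in every comparison. The 34 poly(A) RNA libraries fall into 17 groups.

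Proteins destined for secretion enter the ER through the Sec61 translocon, lose their signal peptide to the signal peptidase, and are folded by chaperones such as BiP (HSPA5) and by disulfide isomerases. Misfolded chains are passed back to the cytosol for degradation, and folded ones leave in COPII vesicles. When unfolded protein accumulates, the sensors IRE1 (ERN1), PERK and ATF6 raise transcription of many of these genes in what is called the unfolded protein response. Prostate luminal epithelium is a secretory tissue, and androgen receptor signalling is known to act on branches of this response.

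RWPE is a non-tumorigenic prostate epithelial line. LNCaP is described in the design text as an early adenocarcinoma model and in the sample labels as lymph node metastatic, and VCaP and MDAPCa2a are labelled bone metastatic. Cells were grown on plastic or on a calcium surface labelled ACP, in each line's own control medium, in medium with charcoal dextran stripped serum (stripped medium), or in stripped medium with androgen. DHT is given in the sample titles and testosterone in the treatment protocol, both at 100 mM as labelled, so the agent is called androgen here. Androgen was given on ACP only. The ACP groups and the stripped groups are labelled day 4, and the labels of plastic control give no day. RWPE had plastic control, ACP control (2 libraries each) and ACP androgen (3 libraries) and no stripped group. Its control medium is a keratinocyte medium without serum that holds EGF and pituitary extract, while the protocol puts the androgen in stripped serum, so serum, growth factors and androgen cannot be told apart in RWPE. LNCaP had plastic control, plastic stripped, ACP control, ACP stripped and ACP androgen. VCaP had the same 5 groups, with 1 library for plastic stripped. MDAPCa2a had plastic control, plastic stripped, ACP stripped and ACP androgen, on coated plastic but on uncoated ACP. Every other group had 2 libraries. The labels do not say whether replicates were separate cultures, so p-values measure only the spread between these libraries, which may be technical.

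Several of these genes carry promoter sequences known to be bound during the unfolded protein response, and 5 promoters that hold such sequences are shown as examples. The 3 motifs named next were searched on both strands of the RefSeq promoter windows (GRCh38.p14, 250 bases before to 50 bases after the start). The ER stress response element (ERSE) is CCAAT and CCACG separated by 9 bases, ERSE-II is ATTGG and CCACG separated by 1 base, and the unfolded protein response element (UPRE) is TGACGTGG. Of the 40 genes, 38 had a window, and PDIA3 and SEC24D had none. The 38 genes have 51 windows among the 35116 of all genes, since some have more than 1 start. ERSE occurred in 27 of all windows (0.0769%), 10 of them among the 51, and in 8 of the 38 genes, namely XBP1, HSPA5, HSP90B1, CRELD2, CALR, CANX, PDIA6 and ERO1B. The 10 windows include overlapping windows of CANX that hold the same match. ERSE-II occurred in 19 of all windows (0.0541%), 3 of them among the 51, and in HYOU1, SDF2L1 and HERPUD1. UPRE occurred in 256 of all windows (0.729%), 4 of them among the 51, and in HYOU1, DNAJC10, SSR3 and SEC24A. Each sequence below gives the 250 bases before the start, 5′ to 3′ on the gene's strand, with motif matches in capitals. HSPA5 (chr9:125241344-125241593, minus strand) has 1 ERSE, HSP90B1 (chr12:103930160-103930409, plus strand) has 2, HYOU1 (chr11:119057206-119057455, minus strand) has 2 ERSE-II matches of which 1 overlaps its UPRE, and SDF2L1 (chr22:21642052-21642301, plus strand) and HERPUD1 (chr16:56931892-56932141, plus strand) have 1 ERSE-II each.
HSPA5: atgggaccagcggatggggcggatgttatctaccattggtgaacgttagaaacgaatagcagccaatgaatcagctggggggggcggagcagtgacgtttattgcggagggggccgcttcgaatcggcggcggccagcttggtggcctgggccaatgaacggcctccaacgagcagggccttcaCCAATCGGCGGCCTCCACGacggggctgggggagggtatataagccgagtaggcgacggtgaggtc
HSP90B1: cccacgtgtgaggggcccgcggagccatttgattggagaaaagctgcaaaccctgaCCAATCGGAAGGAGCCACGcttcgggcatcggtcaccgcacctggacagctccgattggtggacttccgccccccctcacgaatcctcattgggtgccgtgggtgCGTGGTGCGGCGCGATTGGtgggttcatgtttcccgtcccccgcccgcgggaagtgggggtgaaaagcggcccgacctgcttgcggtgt
HYOU1: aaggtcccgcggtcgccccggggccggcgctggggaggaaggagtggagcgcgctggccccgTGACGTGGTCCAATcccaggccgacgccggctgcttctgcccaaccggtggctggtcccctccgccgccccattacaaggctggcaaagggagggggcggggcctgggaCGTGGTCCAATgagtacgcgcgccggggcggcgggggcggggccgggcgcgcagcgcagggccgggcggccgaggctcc
SDF2L1: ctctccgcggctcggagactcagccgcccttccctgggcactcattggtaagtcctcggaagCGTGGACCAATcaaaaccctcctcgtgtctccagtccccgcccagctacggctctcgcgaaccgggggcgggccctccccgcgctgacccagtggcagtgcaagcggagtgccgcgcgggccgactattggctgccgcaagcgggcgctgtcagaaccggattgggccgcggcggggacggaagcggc
HERPUD1: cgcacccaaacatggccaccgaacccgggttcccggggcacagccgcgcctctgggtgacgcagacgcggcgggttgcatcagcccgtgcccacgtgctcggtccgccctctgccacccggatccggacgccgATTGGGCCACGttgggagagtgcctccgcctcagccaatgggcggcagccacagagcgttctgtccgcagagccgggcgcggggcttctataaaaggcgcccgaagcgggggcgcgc

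Library depth ran from 15.4 M to 44.8 M reads (M, reads in units of 1e6). The 8 plastic control libraries (34.9 M to 44.8 M) were deeper than all others (15.4 M to 37.0 M) except LNCaP plastic stripped replicate 1 (37.0 M). They were the only ones labelled continuous culture, and they stand apart in another way. The liver transcript FGG was at 1.41 to 2.84 CPM (reads per 1e6 reads, on TMM-scaled library sizes) in all 8 and at 0 in 25 of the 26 others. The liver markers FGA, FGB and APOA1 were also higher in the 8 without overlap, whereas ALB, TTR, SERPINA1 and AHSG overlapped. Summed, the 8 liver markers did not set these libraries apart, at 10.2 to 173 CPM against 0.445 to 384 CPM. The summed plasma cell and lymphoid markers were at 5.19 to 17.4 CPM in the 8 and 0.153 to 5.91 CPM in the rest. Most of the sum in the 8 was CD74, at 4.69 to 16.9 CPM against 0 to 4.51 in the rest. JCHAIN, MZB1, CD79A and PTPRC reached at most 0.0595, 0.331, 0.321 and 0.175 CPM in the 8. In the rest they reached 2.49, 0.606, 0.780 and 0.162 CPM. The exocrine pancreas markers reached 34.9 CPM in 1 RWPE plastic control library and were at 0 in the other. Any contrast with plastic control therefore also compares these libraries, and culture label and group cannot be told apart in it. The basal keratin KRT5 set RWPE apart, at 2348 to 10152 CPM in RWPE and at 0 to 13.0 CPM in the cancer lines. ERG, listed as the VCaP fusion partner, was at 126 to 882 CPM in VCaP and at 0 to 2.32 CPM in the other lines. Neither gene tells LNCaP from MDAPCa2a. Because the libraries are bulk RNA, fewer cells of a type and less RNA per cell cannot be told apart.

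Per kilobase of transcript, the 5 most abundant of the 40 were chaperones or isomerases. CALR (calreticulin, a lectin chaperone) had a median over the 34 libraries of 933 CPM per kb, P4HB (protein disulfide isomerase) 431, HSP90B1 (GRP94, the ER HSP90) 321, CANX (calnexin, the membrane-bound lectin chaperone) 305 and HSPA5 302. At the other end stood the sensor kinase ERN1 at 1.48 CPM per kb, the membrane-bound transcription factor CREB3L1 at 3.51 and the oxidase ERO1B at 4.54. Summed, the 40 genes took 0.652 to 0.835% of all reads in RWPE on ACP, 0.901 to 1.22% in VCaP in stripped medium on ACP, 1.56 to 1.63% in VCaP with androgen and 1.64 to 1.70% in MDAPCa2a plastic control. The share was lowest in RWPE on ACP and highest in MDAPCa2a plastic control among these 4.

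**Figure D1:**
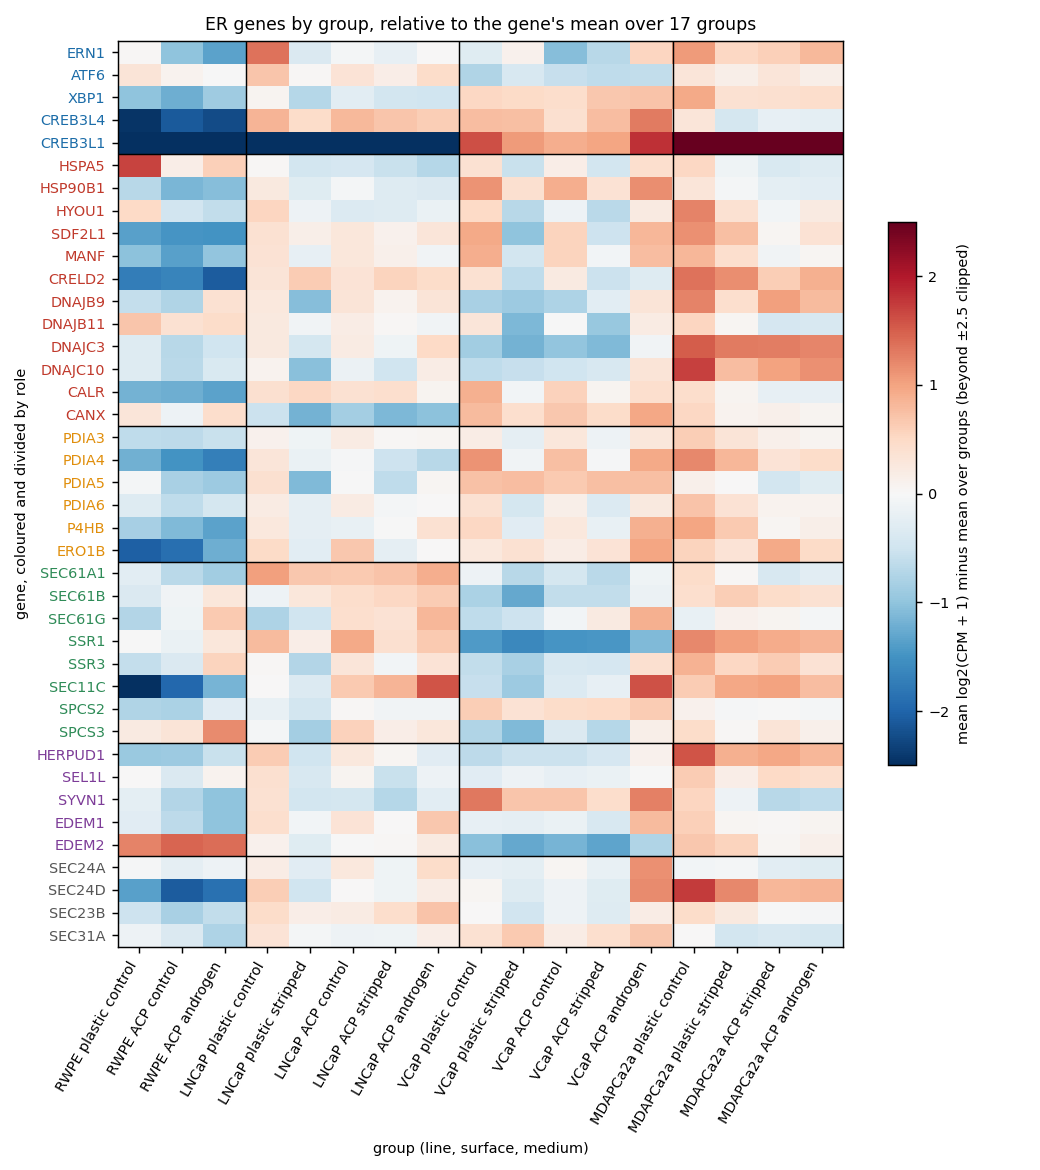
Mean log2(CPM + 1) of each of the 40 genes (rows, divided by role) in each of the 17 groups (columns), minus the gene's mean over the 17 groups and cut off at 2.5 in either direction. CREB3L4, SEC24D, CRELD2 and SDF2L1 are low in the 3 RWPE groups, EDEM2 is high there, and CREB3L1 is high in VCaP and MDAPCa2a only.

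The first question was how the 3 cancer lines differed from RWPE. On ACP with androgen, 26 of the 40 genes were higher and 5 lower in LNCaP, 28 higher and 5 lower in VCaP, and 25 higher and 6 lower in MDAPCa2a (edgeR quasi-likelihood test, Benjamini-Hochberg adjusted p below 0.05 over all genes). Most genes of the table differed between these lines too: 66.9% of all genes tested were called in LNCaP, 67.4% in VCaP and 64% in MDAPCa2a. Of all genes, 32.2%, 32.8% and 29.9% were called higher. The median log2 difference of the 40 was 0.63, 0.88 and 0.63, beside -0.05, -0.04 and -0.09 over all genes. In plastic control, whose libraries are not shared with the first contrast, 27 were higher and 4 lower in LNCaP, 21 and 6 in VCaP, and 31 and 2 in MDAPCa2a, with medians of 0.68, 0.50 and 1.07. The shares of all genes called there were 57.4%, 62.4% and 56.7%, and the shares called higher 29.5%, 32.1% and 28.3%. The 3 lines share the RWPE libraries, so their values are given side by side and their agreement is not counted. Within a line, the 2 sets of libraries are separate. In plastic control each line was in its own control medium, and that of RWPE holds no serum. Line and control medium therefore cannot be told apart in that set. Of the genes higher in LNCaP, 23 were called in both, of 26 on ACP and 27 on plastic. In VCaP 21 were called in both, of 28 and 21, and in MDAPCa2a 24, of 25 and 31. As shares of the ACP and plastic lists these are 88.5% and 85.2% in LNCaP, 75% and 100% in VCaP, and 96% and 77.4% in MDAPCa2a. Over all genes the same shares were 74.1% and 80.7%, 77% and 78.7%, and 74.4% and 78.5%, with 23.8%, 25.3% and 22.2% of all genes tested called higher in both, so the VCaP share of the ACP list and the MDAPCa2a share of the plastic list lay near those of the table.

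**Figure D2:**
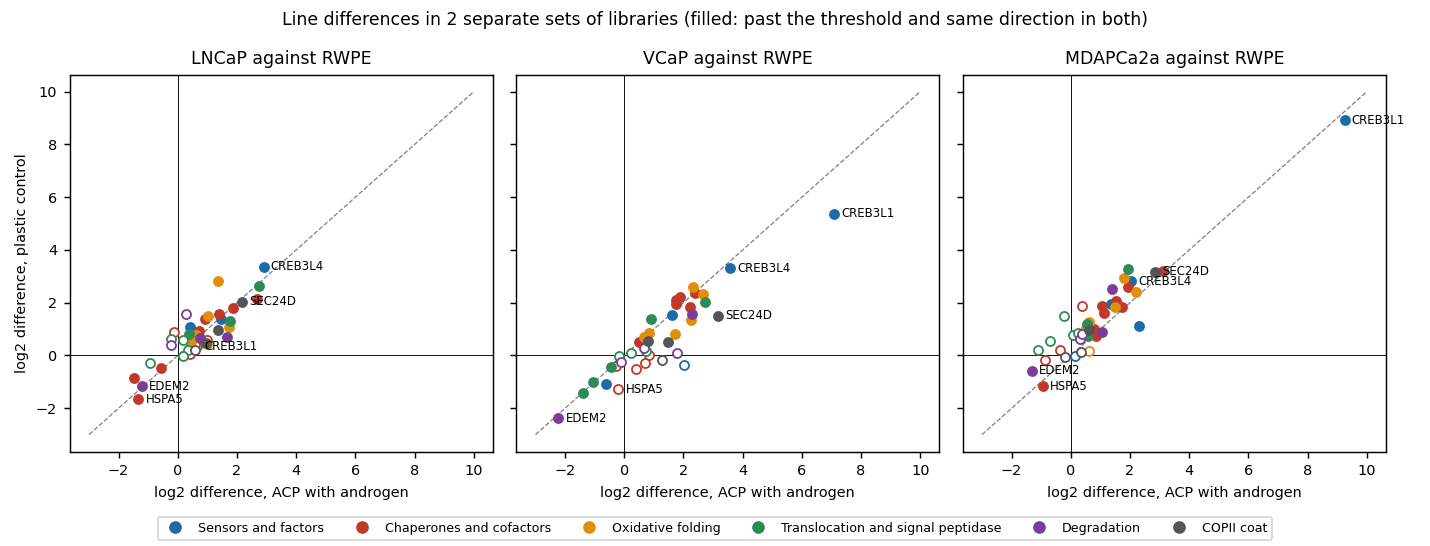
Log2 difference of each of the 40 genes from RWPE on ACP with androgen (x axis) and in plastic control (y axis), 1 panel per cancer line, with colours for roles, filled points for genes past the threshold in the same direction in both and a dashed line of equality. In each panel the filled points lie mostly in the upper right: 23 genes in LNCaP, 21 in VCaP and 24 in MDAPCa2a.

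Among the sensors and transcription factors, CREB3L1 showed the widest range of the 40. CREB3L1, a membrane-bound factor of the CREB3 family known for its role in secretory cells, was at 0.235 to 0.986 CPM in the 7 RWPE libraries (median 0.390), at 0.0358 to 1.52 CPM in the 10 LNCaP libraries (median 0.343), at 17.3 to 64.3 CPM in the 9 VCaP libraries (median 24.4) and at 146 to 432 CPM in the 8 MDAPCa2a libraries (median 229). RWPE and LNCaP overlapped, and every VCaP library lay above both and below every MDAPCa2a library. On ACP with androgen the log2 difference from RWPE was 7.08 ± 0.47 (SE) in VCaP and 9.25 ± 0.48 in MDAPCa2a. The RWPE values rest on 4 to 39 reads per library. Its relative CREB3L4, which is known as a prostate-expressed and androgen-responsive factor, was at 14.9 to 22.2 CPM in RWPE, 110 to 193 in LNCaP, 99.0 to 247 in VCaP and 65.5 to 113 in MDAPCa2a. No cancer library overlapped RWPE, and the log2 differences on ACP with androgen were 2.90 ± 0.19, 3.59 ± 0.19 and 2.03 ± 0.19 in that order. XBP1, the factor activated by IRE1, was at 103 to 139 CPM in RWPE, 143 to 287 in LNCaP, 326 to 418 in VCaP and 286 to 474 in MDAPCa2a. Its difference of 0.42 ± 0.14 in LNCaP lost the threshold without the LNCaP androgen library of replicate 1 (0.24, adjusted p = 0.246), whereas 1.62 ± 0.14 in VCaP and 1.35 ± 0.14 in MDAPCa2a held without each library. ATF6 went the other way in VCaP (-0.62 ± 0.15), where its 9 libraries held 36.7 to 51.0 CPM against 57.3 to 85.3 in RWPE.

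The chaperones split. CALR rose in each line, from 505 to 713 CPM in RWPE to 1547 to 2397 in LNCaP, 1357 to 3069 in VCaP and 1296 to 2092 in MDAPCa2a, with no overlap with RWPE. SDF2L1, an ER protein that works with the BiP cycle, was at 11.96 to 16.7 CPM in RWPE and at 39.3 to 61.0, 20.5 to 88.0 and 37.5 to 101 CPM in LNCaP, VCaP and MDAPCa2a. CRELD2, a secreted and ER-resident protein induced by ER stress, had log2 differences of 2.67 ± 0.20, 1.87 ± 0.20 and 3.13 ± 0.20 from its 8.28 to 13.2 CPM in RWPE. HSPA5 (BiP), the central chaperone of the response, did not follow them. Its libraries held 1332 to 4335 CPM in RWPE, 702 to 1343 in LNCaP, 687 to 1904 in VCaP and 831 to 1775 in MDAPCa2a. On ACP with androgen HSPA5 was lower in LNCaP (-1.34 ± 0.24) and MDAPCa2a (-0.95 ± 0.24), and the difference in VCaP was -0.20 ± 0.23 and not called. In plastic control HSPA5 was lower in all 3 lines, by -1.65 ± 0.26, -1.28 ± 0.26 and -1.17 ± 0.26. The RWPE libraries of that contrast held 3635 and 4335 CPM, the highest of their line, beside 1332 and 1446 in RWPE ACP control. CANX was lower in LNCaP (472 to 819 CPM, against 1060 to 1853 in RWPE; -1.47 ± 0.16) and higher in VCaP (0.51 ± 0.15).

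All 6 genes of oxidative folding were higher than RWPE in each line on ACP with androgen. These are the disulfide isomerases PDIA3, PDIA4, PDIA5, PDIA6 and P4HB, which form and reshuffle disulfide bonds, and ERO1B, which reoxidises them. P4HB went from 419 to 624 CPM in RWPE to 868 to 1491 in LNCaP, 898 to 2061 in VCaP and 1018 to 2179 in MDAPCa2a. PDIA4 showed the largest difference of the 6 in VCaP (2.68 ± 0.19) and MDAPCa2a (2.19 ± 0.18), and P4HB in LNCaP (1.73 ± 0.15). All 6 were also higher in plastic control in LNCaP and VCaP, and 5 of 6 in MDAPCa2a, where PDIA5 had 0.17 ± 0.15.

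Entry into the ER gave both directions. SEC11C, a catalytic subunit of the signal peptidase, was at 14.8 to 55.6 CPM in RWPE and at 70.2 to 352 in LNCaP, 50.6 to 315 in VCaP and 143 to 245 in MDAPCa2a, with log2 differences on ACP with androgen of 2.75 ± 0.25, 2.73 ± 0.25 and 1.93 ± 0.24. SPCS3, an accessory subunit of the same enzyme, was lower in that contrast (-0.93 ± 0.25, -1.07 ± 0.26 and -1.09 ± 0.26). In plastic control SPCS3 was lower in VCaP (-0.99 ± 0.27), a call that held without each library, and had -0.28 ± 0.27 in LNCaP and 0.22 ± 0.27 in MDAPCa2a, neither called. SSR1, a subunit of the translocon-associated complex, was at 52.4 to 77.0 CPM in VCaP, below the 138 to 206 of RWPE, the 156 to 339 of LNCaP and the 291 to 378 of MDAPCa2a. Its log2 difference from RWPE was -1.40 ± 0.15 in VCaP and 0.56 ± 0.14 in MDAPCa2a, the second not called after offsets for GC content and length (0.21). SEC61A1, the pore of the translocon, was higher in LNCaP (1.77 ± 0.16), with 534 to 741 CPM against 166 to 309 in RWPE. SEC61B, a small translocon subunit, differed from RWPE by 0.36 ± 0.16 in LNCaP and 0.09 ± 0.16 in MDAPCa2a, which were not called, and by -0.44 ± 0.17 in VCaP, a call lost without any 1 of 4 libraries (-0.27 without RWPE androgen 1, -0.36 without RWPE androgen 2, -0.35 without VCaP androgen 1 and -0.47 without VCaP androgen 2). The call of SEC61G in MDAPCa2a (-0.70 ± 0.19) was lost without RWPE androgen 1 (-0.41) or MDAPCa2a androgen 2 (-0.50), and turned to 0.056 with the offsets for GC content and length. In plastic control SEC61G was called higher in MDAPCa2a (0.56 ± 0.21), opposite to its call on ACP. That call was lost without RWPE plastic control 1 (0.51), RWPE plastic control 2 (0.58) or MDAPCa2a plastic control 2 (0.47).

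In degradation, EDEM2 and EDEM1 parted. These proteins mark misfolded glycoproteins for disposal. EDEM2 was at 47.2 to 64.6 CPM in RWPE, 15.5 to 27.7 in LNCaP, 7.38 to 14.5 in VCaP and 20.6 to 37.5 in MDAPCa2a, with no overlap with RWPE and differences of -1.20 ± 0.20, -2.22 ± 0.21 and -1.32 ± 0.20. EDEM1 was higher on ACP with androgen by 1.67 ± 0.19, 1.77 ± 0.19 and 1.04 ± 0.19. HERPUD1, a stress-induced scaffold of the degradation complex, was highest in MDAPCa2a (241 to 440 CPM), with 70.1 to 105 in RWPE, 93.6 to 230 in LNCaP and 82.6 to 151 in VCaP. SYVN1, the ubiquitin ligase of the complex, was higher in VCaP (2.30 ± 0.20).

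The cargo-binding COPII subunit SEC24D was at 9.25 to 19.7 CPM in RWPE, 30.8 to 80.9 in LNCaP, 26.6 to 123 in VCaP and 70.7 to 160 in MDAPCa2a, and no cancer library overlapped RWPE. Its log2 differences on ACP with androgen were 2.16 ± 0.26, 3.16 ± 0.26 and 2.84 ± 0.26. All 4 COPII genes were higher in LNCaP and VCaP on ACP with androgen, and 2 of 4 in MDAPCa2a, where the paralogue SEC24A had -0.19 ± 0.19. SEC24A in LNCaP (0.59 ± 0.19) was not called without the androgen library of replicate 1 (0.44). Of all calls on ACP with androgen, 26 of 31 in LNCaP, 30 of 33 in VCaP and 27 of 31 in MDAPCa2a held without each library in turn. In plastic control 21 of 31, 23 of 27 and 28 of 33 held.

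**Figure D3:**
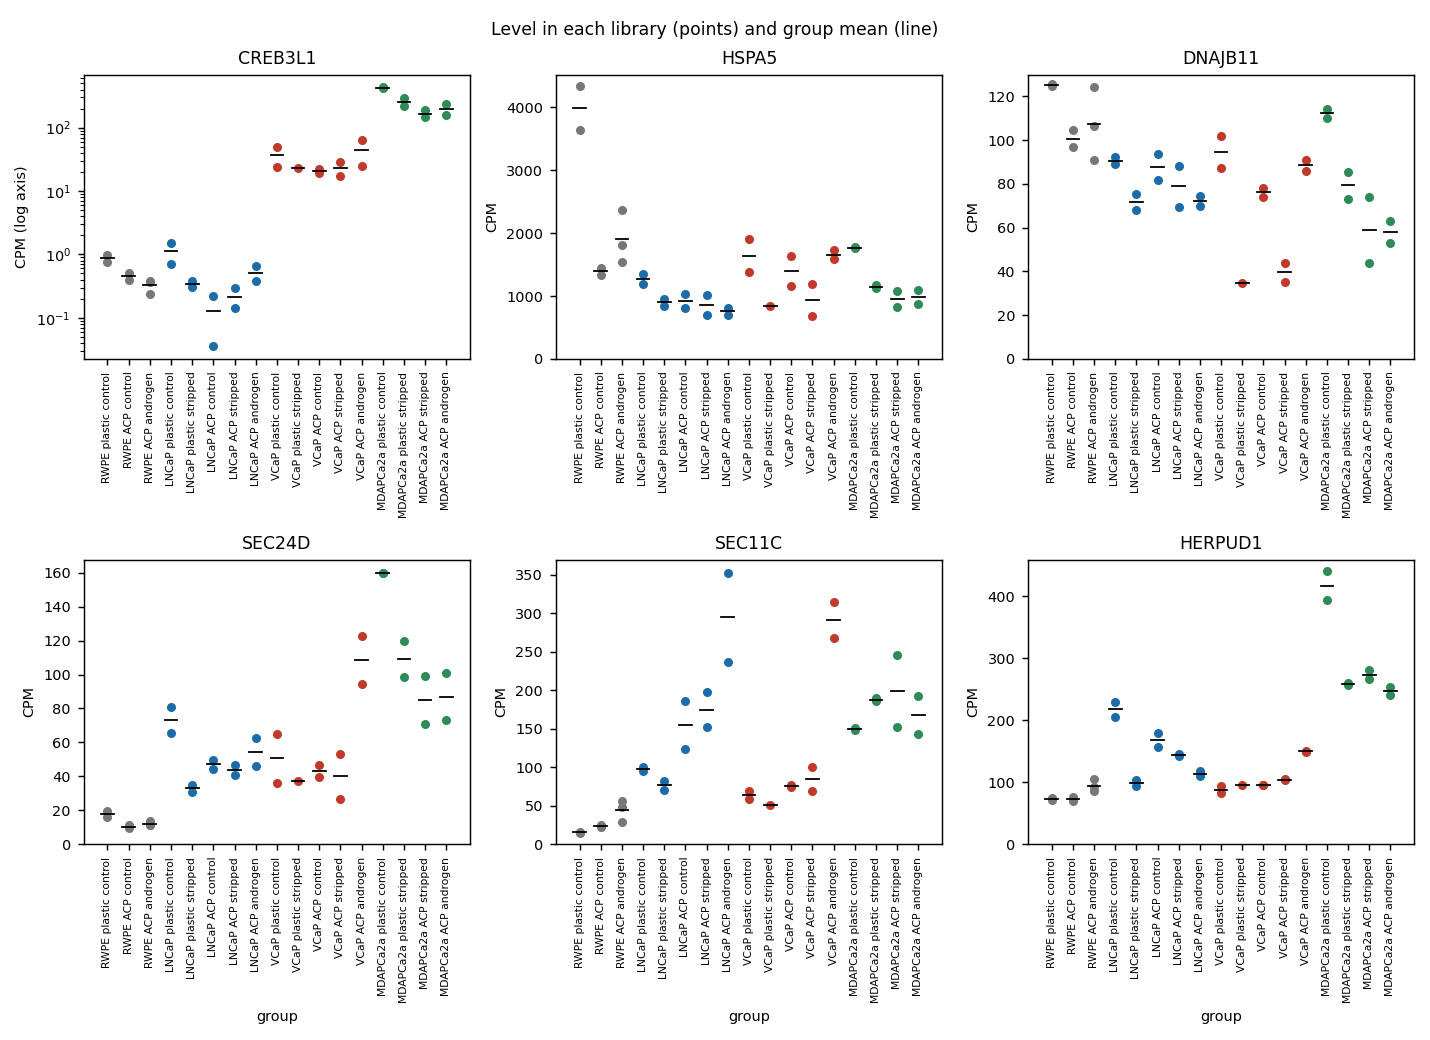
CPM of CREB3L1 (log axis), HSPA5, DNAJB11, SEC24D, SEC11C and HERPUD1 in every library (points), by group, with the group mean as a line. CREB3L1 separates VCaP and MDAPCa2a from the other lines, within VCaP DNAJB11 is lowest in the 3 stripped libraries (34.5 to 43.9 CPM), and SEC11C in VCaP is high with androgen only (268 and 315 CPM).

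The second question was what androgen did to these genes on ACP. In VCaP, 14 of the 40 were higher with androgen than in stripped medium and none was lower. Of all genes tested 17.5% were called, 8.67% as higher. The fitted difference was above 0 for all 40, with a median of 0.65 against -0.03 over all genes. In 33 of the 40, both androgen libraries lay above both stripped libraries, which was the case for 31.6% of genes with 1 CPM or more in either group. The calls were 1 of 5 sensors and factors, 5 of 12 chaperones, 2 of 6 genes of oxidative folding, 2 of 8 of translocation and signal peptidase, 2 of 5 of degradation and 2 of 4 of the COPII coat.

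SEC11C led the rise in VCaP. It went from 69.1 and 100 CPM in stripped medium to 315 and 268 CPM with androgen, beside 76.4 and 73.7 in ACP control, 59.2 and 68.7 in plastic control and 50.6 in the lone plastic stripped library (1.79 ± 0.22, adjusted p = 0.00155). SEC24A went from 39.9 and 51.1 to 124 and 107 CPM (1.34 ± 0.23, adjusted p = 0.00601). EDEM1 went from 49.8 and 47.0 to 107 and 115 CPM (1.20 ± 0.19, adjusted p = 0.00384). For SEC11C, SEC24A and EDEM1, both androgen libraries lay above all 7 other VCaP libraries, control medium included. SDF2L1 went from 21.7 and 38.3 to 75.3 and 75.0 CPM (1.32 ± 0.25, adjusted p = 0.00886), with 60.4 and 63.1 in ACP control, 75.7 and 88.0 in plastic control and 20.5 in plastic stripped. DNAJB11, a DnaJ cofactor of BiP, went from 35.2 and 43.9 to 85.9 and 91.1 CPM (1.16 ± 0.19, adjusted p = 0.00478), with 78.1 and 74.1 in ACP control, 87.4 and 102 in plastic control and 34.5 in plastic stripped. In these 2 genes the 3 stripped libraries were low and the androgen libraries were at the level of control medium. P4HB went from 1008 and 911 to 2009 and 2061 CPM (1.09 ± 0.20, adjusted p = 0.00773), above the 1266 to 1641 CPM of the 4 control libraries.

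The SEC24D rise in VCaP was from 26.6 and 53.2 to 123 and 94.6 CPM (1.44 ± 0.35, adjusted p = 0.0213), and that of ERN1 from 4.88 and 8.77 to 21.0 and 13.4 CPM (1.33 ± 0.37, adjusted p = 0.0364). The stripped library of replicate 1 was the lower of the pair in both. SDF2L1, DNAJB11, P4HB, SEC11C, EDEM1 and SEC24A kept their call without each of the 4 libraries. The other 8 calls (SEC24D, ERN1, DNAJC3, PDIA4, MANF, HSP90B1, SSR3 and SYVN1, some named after their values were seen) were lost without the stripped library of replicate 1 or the androgen library of replicate 1, and all of them except SYVN1 without the androgen library of replicate 2. Without those libraries the count of calls was 6, 6 and 7. SEC24D, for example, had 1.07 (adjusted p = 0.105), 1.26 (0.0894) and 1.62 (0.0573), and ERN1 1.01, 0.99 and 1.62. With offsets for GC content and length MANF was not called (0.68, adjusted p = 0.0866).

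Other markers moved with this contrast in VCaP. All 5 luminal prostate markers (KRT8, KRT18, KLK3, KLK2 and TMPRSS2) were higher in both androgen libraries, with a sum of 4233 to 4539 CPM in stripped medium and 7900 to 12757 CPM with androgen. KLK3, the gene of prostate-specific antigen and a classic androgen receptor target, went from 36.1 and 120 to 3446 and 840 CPM, so the pair of androgen libraries differed widely from each other. The 8 liver markers summed to 324 to 384 CPM in stripped medium and 49.8 to 113 CPM with androgen, most of it ALB (267 and 322, then 15.3 and 64.8 CPM), while the liver transcripts FGG and FGA were at 0 in all 4 libraries. The 5 fibroblast markers summed to 40.4 to 161 CPM and 7.36 to 8.41 CPM, and the plasma cell and lymphoid markers to 1.48 to 2.34 CPM and 4.46 to 5.91 CPM. The high fibroblast sums were mainly LUM, which ran from 1.25 to 153 CPM over the VCaP libraries. COL1A1, COL3A1, COL1A2 and DCN reached at most 6.68, 2.60, 1.76 and 1.35 CPM in VCaP. The part of these markers in the result was not tested.

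HSPA5 in VCaP was at 687 and 1185 CPM in stripped medium and at 1729 and 1582 with androgen (log2 difference 0.82, adjusted p = 0.083, not called). HERPUD1 was at 105 and 103, then 151 and 149 CPM (0.53, adjusted p = 0.054, not called). CALR had a log2 difference of 0.33, CREB3L4 0.54, XBP1 0.05 and ATF6 0.02, none called. Of the 13 rising genes with a promoter window, 2 held an ERSE or ERSE-II (HSP90B1 and SDF2L1), and of the 25 other genes with a window 9 did, HSPA5, HYOU1 and HERPUD1 of the printed sequences among them. This is a count of letters in the windows, not of binding.

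The order of the media differed between genes. In VCaP, 12 of the 40 genes had all 3 stripped libraries below every other library of the line, beside 10.9% of genes with 1 CPM or more: HSP90B1, SDF2L1, MANF, CRELD2, DNAJB11, CALR, PDIA3, PDIA4, PDIA6, P4HB, SEC61A1 and SEC23B. They are chaperones or isomerases with the exception of SEC61A1 and SEC23B. In 18 of the 40, both androgen libraries lay above every other VCaP library, beside 14.4% of such genes: ERN1, CREB3L4, DNAJB9, DNAJC3, DNAJC10, CANX, P4HB, ERO1B, SEC61B, SEC61G, SSR1, SSR3, SEC11C, SPCS3, HERPUD1, EDEM1, SEC24A and SEC24D. P4HB was in both. In LNCaP, all 4 stripped libraries were below the other 6 for 9 genes (DNAJC3, DNAJC10, PDIA5, PDIA6, SSR1, SSR3, SEL1L, EDEM1 and SEC24A; 4.4% of genes), and both androgen libraries were above the other 8 for SEC61G, SEC11C, EDEM1 and SEC24A (10.8% of genes). These orders were looked for after the values were seen and are a description.

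In LNCaP, 2 of the 40 rose with androgen and none fell, beside 7.73% of all genes called. PDIA5 went from 29.4 and 27.1 to 47.5 and 44.8 CPM (0.69 ± 0.15, adjusted p = 0.0173), and EDEM1 from 64.3 and 65.1 to 104 and 102 CPM (0.66 ± 0.16, adjusted p = 0.031). Both groups were apart in each gene, with androgen higher, as in 29.3% of genes with 1 CPM or more. Both calls were lost without stripped 1 (0.74 and 0.64), stripped 2 (0.65 and 0.68) or androgen 1 (0.63 and 0.62). EDEM1 was also not called in the fit without plastic control libraries (0.67, adjusted p = 0.0525). The median of the 40 was 0.21. No gene of the whole table was called in MDAPCa2a (0% by edgeR, with 236 genes at an unadjusted p below 0.05 and 3 genes called by DESeq2), and none of the 40 had an unadjusted p below 0.05. Its fitted differences ran from -0.59 for ERO1B to 0.27 for SDF2L1, whose transcripts have a GC content of 37.0% and 65.5%. They ran with GC content (Spearman rho 0.39 over 13290 genes, 0.73 over the 40).

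The difference of the androgen effect between lines was tested directly. VCaP exceeded LNCaP in 5 genes and fell below it in 1, beside 10.9% of all genes called. DNAJB11 had the largest difference (1.29 ± 0.27, adjusted p = 0.00381), as LNCaP held 69.5 and 88.2 CPM in stripped medium and 69.9 and 74.7 with androgen. HERPUD1 differed as well (0.87 ± 0.19, adjusted p = 0.00393), with 146 and 143, then 110 and 117 CPM in LNCaP. SDF2L1 differed by 1.14 ± 0.33 (adjusted p = 0.027), from 51.9 and 39.4 to 51.8 and 52.2 CPM in LNCaP. PDIA4 differed by 1.13 ± 0.29 (adjusted p = 0.0124). MANF, a secreted ER chaperone cofactor, differed by 1.01 ± 0.28 (adjusted p = 0.0204). PDIA5 was the gene that went the other way (-0.69 ± 0.22, adjusted p = 0.0419), from 77.8 and 73.6 to 87.7 and 65.9 CPM in VCaP. DNAJB11 and HERPUD1 held without each of the 8 libraries. PDIA4 was lost without LNCaP stripped 2 (0.95), LNCaP androgen 1 (1.00) or VCaP stripped 1 (0.83). MANF was lost without these 3 libraries (0.89, 0.95 and 0.70) or VCaP androgen 2 (0.88), and with the GC and length offsets (0.75). SDF2L1 was lost without LNCaP stripped 1 (0.92), either LNCaP androgen library (1.13 and 1.14), VCaP stripped 1 (0.78) or either VCaP androgen library (1.13 and 1.11). PDIA5 was lost without 7 of the 8, all but VCaP androgen 1, with values from -0.75 to -0.52. Between MDAPCa2a and LNCaP no gene of the 40 was called, with 1.12% of all genes called and 5 of the 40 at an unadjusted p below 0.05.

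In RWPE, where the androgen medium differs from the control in serum as well, 6 of the 40 were higher and none lower. Of all genes 19.1% were called, 11% as higher. DNAJB9, a DnaJ cofactor of BiP, went from 14.95 and 18.1 CPM to 54.8, 35.9 and 26.3 (1.26 ± 0.29, adjusted p = 0.0213). SSR3 went from 138 and 161 to 350, 287 and 226 CPM (0.97 ± 0.21, adjusted p = 0.0202), and SEC61G from 65.6 and 63.9 to 140, 99.0 and 94.3 CPM (0.80 ± 0.20, adjusted p = 0.0247). SPCS3 (0.91 ± 0.24), SEC11C (0.89 ± 0.26) and CANX (0.60 ± 0.18) completed the list. The androgen library of replicate 1 was the highest of the 3 in each of the 6. The transcripts of the 6 have a GC content of 35.8 to 48.1%, and across genes the log2 difference in this contrast ran with GC content (Spearman rho -0.53 over 13948 genes of the same libraries, -0.68 over the 40). With offsets for GC content and length the 6 values were 0.83, 0.66, 0.21, 0.44, 0.31 and 0.42 in the order named, and none was called. Without either ACP control library none of the 6 was called (DNAJB9 1.06 and 1.42), and CANX, SEC11C and SPCS3 were also lost without androgen 1 or 2. The basal markers also moved with this contrast, from a sum of 12537 to 15698 CPM in ACP control to 3348 to 10954 CPM with androgen, and their part in the result was not tested.

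**Figure D4:**
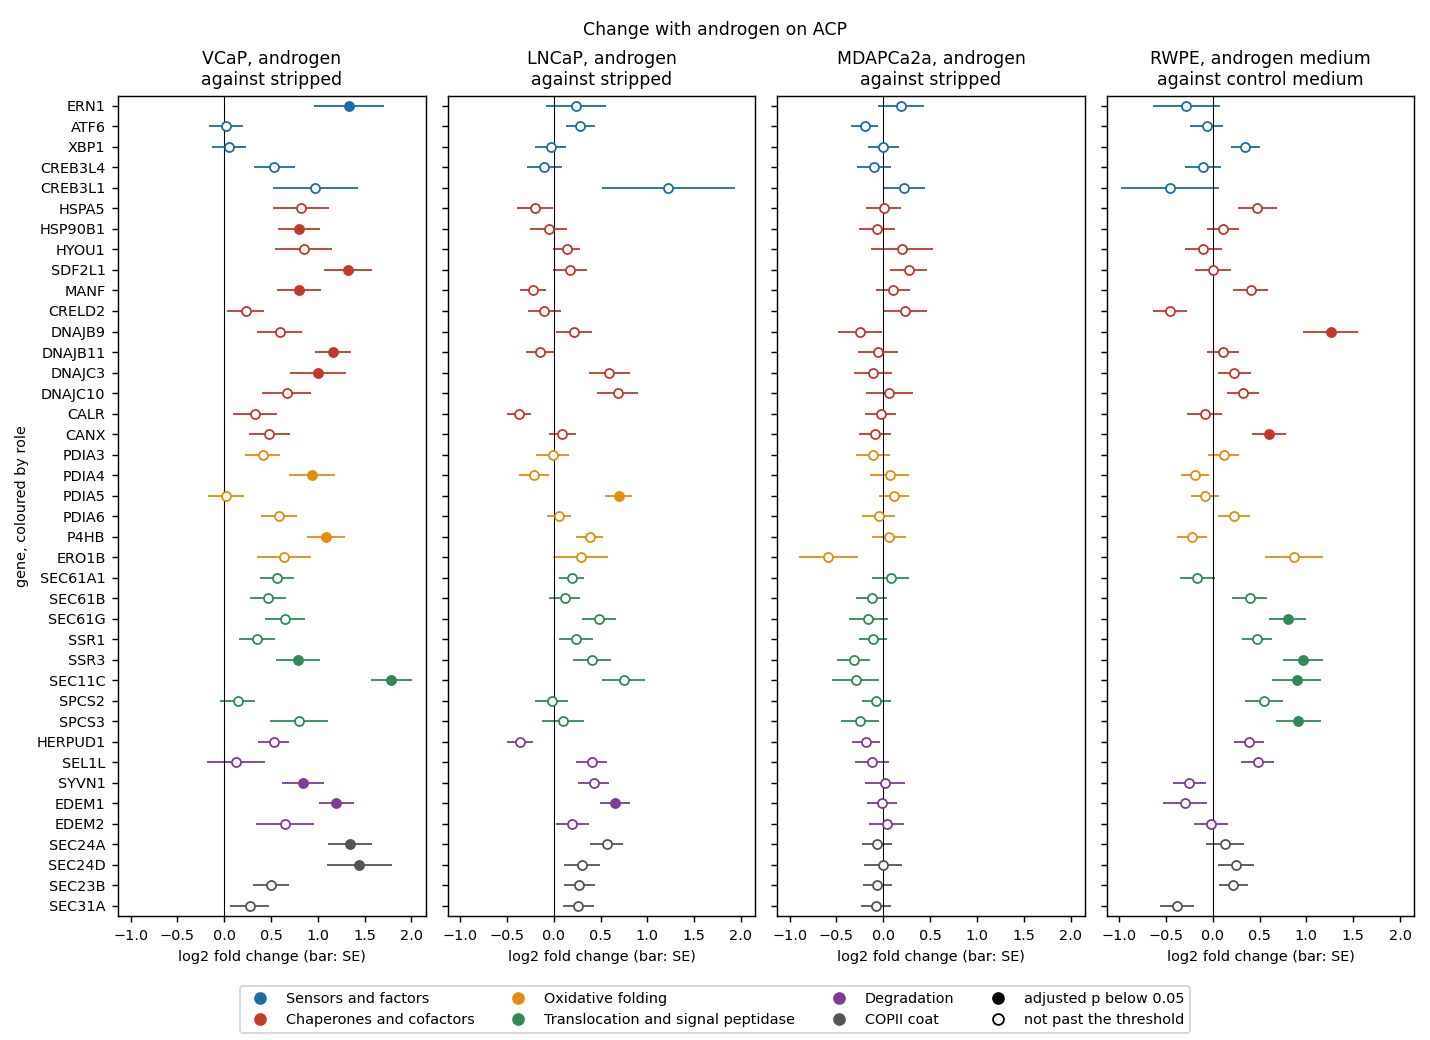
Log2 difference (± SE) with androgen on ACP of each of the 40 genes, against stripped medium in VCaP, LNCaP and MDAPCa2a and against control medium in RWPE, with filled points for an adjusted p below 0.05. In VCaP all 40 points lie above 0 and 14 are filled, with 2 filled in LNCaP, 0 in MDAPCa2a and 6 in RWPE.

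The third question was what removal of hormones and other small molecules from the serum did. On plastic, 13 of the 40 were lower in LNCaP in stripped medium and none was higher, beside 9.45% of all genes called and 4.84% called lower. The median was -0.45 over the 40 and -0.01 over all genes. In 35 of the 40 both stripped libraries lay below both controls, as in 35.2% of genes with 1 CPM or more. PDIA5 fell from 62.7 and 55.3 to 20.1 and 20.3 CPM (-1.50 ± 0.15, adjusted p = 0.000255). HERPUD1 fell from 230 and 206 to 93.6 and 103 CPM (-1.09 ± 0.14, adjusted p = 0.000968), and DNAJB9 from 29.7 and 39.0 to 12.6 and 13.4 CPM (-1.35 ± 0.19, adjusted p = 0.00176). ERN1 fell from 29.3 and 32.0 to 13.1 and 5.61 CPM (-1.66 ± 0.32, adjusted p = 0.00948). SEC24D (-1.10 ± 0.19), DNAJC10, an ER reductase (-1.06 ± 0.22), and XBP1 (-0.74 ± 0.17, from 287 and 231 to 143 and 154 CPM) fell too. The calls were 3 of 5 sensors and factors, 5 of 12 chaperones, 1 of 6 genes of oxidative folding, 0 of 8 of translocation, 3 of 5 of degradation and 1 of 4 of the coat. CALR was at 2090 and 1925 CPM, then 2397 and 1979. DNAJB9, PDIA5 and HERPUD1 held without each library. ERN1 was lost without plastic control 2 (-1.59, adjusted p = 0.0614), SEC24D without plastic control 1 (-0.95) or stripped 1 (-0.97), and DNAJC10 and XBP1 without control 1 (-1.02 and -0.59), control 2 (-1.09 and -0.88) or stripped 1 (-0.76 and -0.65). The count was 4 without any of those 3 libraries. The control arm holds the plastic control libraries. Their plasma cell and lymphoid markers summed to 10.4 to 10.8 CPM against 0.153 to 0.205 CPM in the stripped ones. Most of that sum was CD74, which reached 10.5 CPM in LNCaP. Culture label and medium cannot be told apart here.

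On ACP, where no plastic control enters the contrast, 1 of the 40 was lower in LNCaP with 5.37% of all genes called. PDIA5 was at 40.5 and 47.5 CPM in control medium and 29.4 and 27.1 in stripped medium (-0.66 ± 0.15, adjusted p = 0.025). The call was lost without control 2 (-0.56), stripped 1 (-0.71) or stripped 2 (-0.62), and in the fit without plastic control libraries (-0.67). PDIA5 in LNCaP thus had 1 order in 5 groups: the 4 stripped libraries (20.1 to 29.4 CPM) lay below the 6 others (40.5 to 62.7 CPM). In VCaP on ACP none of the 40 was called (8 had an unadjusted p below 0.05, and 3 were called by DESeq2), with 0.82% of all genes called. The lowest values were SDF2L1 (-1.02 ± 0.25, adjusted p = 0.086) and DNAJB11 (-0.93 ± 0.19, adjusted p = 0.054). These share the stripped libraries with the androgen contrast. MDAPCa2a on plastic had no call among the 40 (14 at an unadjusted p below 0.05, 4 called by DESeq2) and 1.58% of all genes called. In 32 of the 40 both stripped libraries lay below both controls, beside 31.8% of genes with 1 CPM or more, and the median was -0.35.

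The last question was the surface. In stripped medium, 5 of the 40 were higher on ACP than on plastic in LNCaP and none lower, with 6.12% of all genes called and 4.32% called higher. DNAJB9 went from 12.6 and 13.4 to 27.3 and 33.6 CPM (1.26 ± 0.19, adjusted p = 0.00544), and SEC61G from 51.6 and 46.4 to 95.8 and 83.4 CPM (0.90 ± 0.18, adjusted p = 0.0185). SEC11C (82.3 and 70.2 to 197 and 152 CPM, 1.23 ± 0.24), SPCS3 (40.2 and 66.5 to 102 and 110 CPM, 1.02 ± 0.23) and HERPUD1 (93.6 and 103 to 146 and 143 CPM, 0.59 ± 0.14) were the others. The plastic stripped libraries are shared with the stripping contrast on plastic, in which DNAJB9 and HERPUD1 fell, so these results are not separate. No group overlapped. None of the 5 held without each library: all were lost without plastic stripped 1 or ACP stripped 2 (DNAJB9 1.15 and 1.09, SEC11C 1.27 and 1.39), and all but DNAJB9 without ACP stripped 1. SEC11C was also lost without plastic stripped 2 (1.17, adjusted p = 0.0504). The log2 difference ran with GC content here too (rho -0.39 over 14245 genes, -0.43 over the 40), and SEC11C was not called with the offsets (0.89). MDAPCa2a in stripped medium had no call among the 40 (9 at an unadjusted p below 0.05) with 0.00734% of all genes called, which is 1 gene. Its surface differences ran with GC content as well (rho -0.48 over 13290 genes, -0.77 over the 40).

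In control medium the surface contrast again includes the plastic control libraries. Those of LNCaP are shared with its stripping contrast on plastic, in which ERN1 also fell. RWPE had 3 genes lower on ACP and none higher, with 4.16% of all genes called. HSPA5 fell from 4335 and 3635 CPM on plastic to 1446 and 1332 on ACP (-1.49 ± 0.23, adjusted p = 0.0107), and HYOU1, the nucleotide exchange factor of BiP, from 563 and 482 to 297 and 237 CPM (-0.94 ± 0.22, adjusted p = 0.0429). PDIA5 fell from 42.3 and 44.0 to 25.2 and 24.5 CPM (-0.77 ± 0.16, adjusted p = 0.0305). In these 3 genes both ACP libraries lay below both plastic ones, as in 35.2% of genes with 1 CPM or more. The groups did not overlap, yet the count was 0 without plastic control 1 or either ACP control library and 1 without plastic control 2. HSPA5 without plastic control 1 was at -1.36 (adjusted p = 0.104). In LNCaP 2 were higher on ACP and 4 lower, with 12.6% of all genes called. SEC61G went from 38.2 and 43.1 to 104 and 82.6 CPM (1.30 ± 0.18, adjusted p = 0.00833), ERN1 from 29.3 and 32.0 to 9.01 and 13.2 CPM (-1.36 ± 0.32, adjusted p = 0.023), HYOU1 changed by -0.79 ± 0.14 (adjusted p = 0.0113) and SYVN1 by -0.73 ± 0.16 (adjusted p = 0.021). SEC61B (77.5 and 81.9 to 129 and 108 CPM, 0.68 ± 0.17) was at -0.049 with the offsets for GC content and length. The log2 difference in LNCaP ran with GC content in this contrast too (rho -0.40 over 14245 genes, -0.48 over the 40). With the offsets the count of calls was 3. CREB3L1 (-3.01 ± 0.73) rests on 34 and 69 reads on plastic and 1 and 6 on ACP. None of the 6 was called without plastic control 1 or 2 (SEC61G 1.21 and 1.41), and only SEC61G was without ACP control 1. VCaP had no call among the 40 (3 at an unadjusted p below 0.05) and 0.0448% of all genes called. Its differences ran with GC content as well (rho -0.36 over 15170 genes, -0.71 over the 40).

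**Figure D5:**
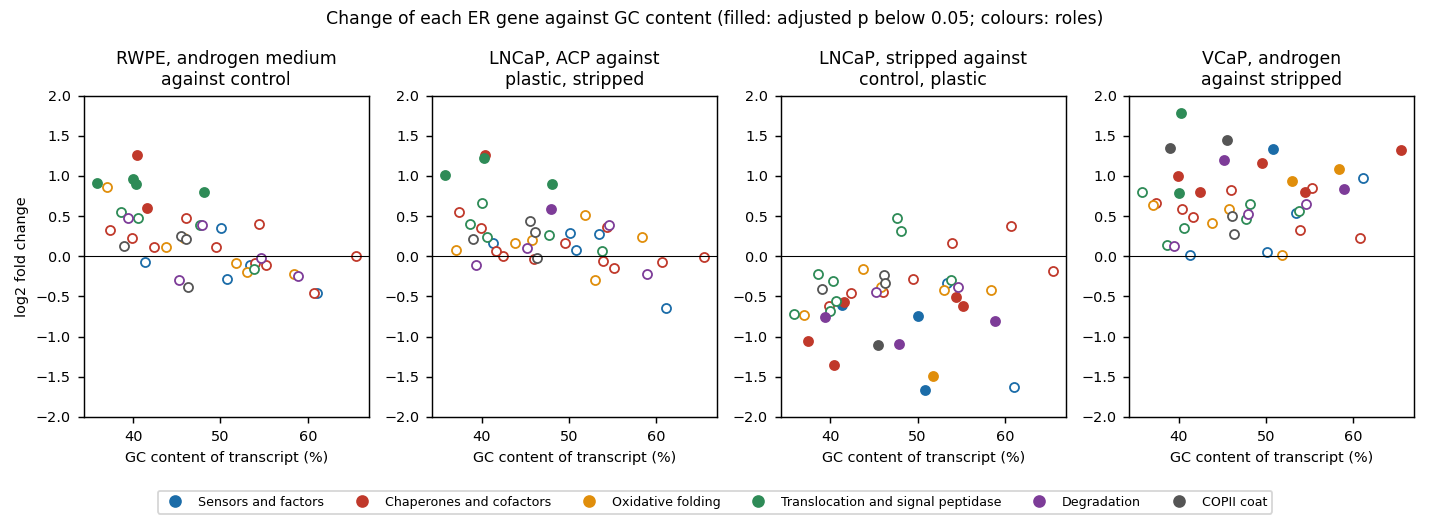
Log2 difference of each of the 40 genes against the GC content of its transcript (percent) in 4 contrasts, with colours for roles and filled points for an adjusted p below 0.05. Values fall with GC content in the RWPE androgen medium (rho -0.68) and in the LNCaP surface contrast in stripped medium (rho -0.43), but not in the VCaP androgen contrast (rho 0.09).

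Another 84 genes of the same pathway, also chosen with earlier results of these data known, gave the wider setting. In VCaP with androgen 25 of the 84 (29.8%) rose and none fell, beside 17.5% of all genes called and 8.67% called higher. They were 10 of 27 genes of the COPII and COPI coats and cargo receptors, 7 of 21 of targeting and oligosaccharyl transfer, 5 of 13 of degradation, 2 of 8 sensors and stress genes and 1 of 15 of folding and redox. The largest was KDELR3, a receptor that returns escaped ER proteins (2.69 ± 0.40, adjusted p = 0.00346), followed by the COPII GTPase SAR1B (1.37 ± 0.28), UFD1 (1.30 ± 0.22) of the retrotranslocation complex, the oligosaccharyltransferase subunit RPN1 (1.23 ± 0.20) and the membrane-bound factor CREB3 (1.18 ± 0.19). In LNCaP with androgen 5 of the 84 (5.95%) rose, beside 7.73% of all genes called, with ERO1A, the second ER oxidase, at 1.45 ± 0.27 and EDEM3 at 1.30 ± 0.20. In MDAPCa2a none did. In the RWPE androgen medium 15 rose and 2 fell (20.2% called, beside 19.1% of all genes called and 11% called higher). In LNCaP on plastic 12 were lower and 2 higher in stripped medium (16.7% called, beside 9.45%), and the stress-induced factor DDIT3 (CHOP) fell most (-1.54 ± 0.19, adjusted p = 0.000925). Against RWPE on ACP with androgen, 45 of the 84 were higher and 17 lower in LNCaP, 42 and 14 in VCaP, and 30 and 21 in MDAPCa2a. The shares called were 73.8%, 66.7% and 60.7%, beside 66.9%, 67.4% and 64% of all genes. Of all genes, 32.2%, 32.8% and 29.9% were called higher there. In VCaP and MDAPCa2a in that contrast, and in LNCaP and RWPE with androgen, the shares called in either direction were near those of the whole table. Against RWPE in plastic control the shares called were 56%, 60.7% and 70.2%, beside 57.4%, 62.4% and 56.7% of all genes. In MDAPCa2a 53 were higher there and 6 lower. In LNCaP in stripped medium 13 of the 84 were higher on ACP than on plastic and 0 lower (15.5% called, beside 6.12%).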

How the data were processed

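Poly(A) RNA was sequenced from 34 libraries in 17 groups. The authors deposited raw counts of reads for each gene symbol, not normalized, in 1 table of 26336 genes, of which 4335 had 0 reads throughout. The submitters' processing notes name STAR, HTSeq and hg19, without versions; no annotation or strand setting is named there. Columns were matched to samples by the names in the labels. No library pair of 1 group agreed within sampling noise (18 pairs, chi-square per gene at least 10.7). In the RWPE plastic control columns 16 values of 12 genes have the form of spreadsheet dates, and none belongs to the 40 genes.

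Genes were tested with edgeR 4.0.16 in R 4.3.3 (glmQLFTest on TMM-scaled counts, after filterByExpr at min.count 10) and Benjamini-Hochberg adjustment over all genes, with 0.05 as the threshold. Contrasts within a line used that line's groups (4 or 5 residual degrees of freedom), and contrasts between lines all 34 libraries (17). Standard errors are the log2 difference divided by the square root of F, and CPM uses TMM sizes over all libraries. The fits were tested on simulated data. Alternatives were other size factors (RLE), no count filter, DESeq2 1.42.0, a replicate block and each library left out. Offsets for GC content and transcript length (lowess, span 0.3, GENCODE transcripts, 92.8% of genes matched) and fits without plastic control libraries were added after the data were seen. The 40 genes, their roles, the 84 other pathway genes and the marker lists were chosen with earlier results of these data known. In each contrast every called gene could be named when at most 12 were called, and otherwise the 6 largest rises and falls with a mean of 5 CPM or more. HSPA5, CALR, P4HB, XBP1, CREB3L4, SEC61B, SEC24D and HERPUD1 and the largest rise and fall in each role could be named in any contrast. Promoter sequences and motif counts are from RefSeq (GRCh38.p14), a different build from the counts, and were used by gene symbol only.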

Additional observations from a re-analysis of the deposited data

Results flagged for a closer look

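The effect of androgen on ACP differed between VCaP and LNCaP in 6 of the 40 genes, by a direct test of the difference over all 34 libraries (edgeR quasi-likelihood test, Benjamini-Hochberg adjustment over all genes). The log2 effect was larger in VCaP for DNAJB11 (by 1.29 ± 0.27, adjusted p = 0.00381), SDF2L1 (by 1.14 ± 0.33, adjusted p = 0.027), PDIA4 (by 1.13 ± 0.29, adjusted p = 0.0124), MANF (by 1.01 ± 0.28, adjusted p = 0.0204) and HERPUD1 (by 0.87 ± 0.19, adjusted p = 0.00393). PDIA5 was the exception with -0.69 ± 0.22 (adjusted p = 0.0419). PDIA4 went from 140 and 178 CPM to 126 and 152 in LNCaP and from 176 and 279 to 423 and 449 in VCaP. MANF went from 117 and 138 to 106 and 115 CPM in LNCaP and from 87.9 and 142 to 186 and 213 in VCaP. The difference of 2 of the 6, DNAJB11 and HERPUD1, was called without each of the 8 libraries in turn.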

How the results depend on the processing

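Counts below are of the 40 genes called. In VCaP with androgen the count of 14 lay between 14 and 21 under RLE size factors, no count filter, DESeq2, the block, the GC and length offsets and the fit without plastic control. The calls of LNCaP with androgen (2) became 6 without the filter, 5 by DESeq2, 9 with the offsets and 1 without plastic control. Those of the RWPE androgen medium (6) became 10 by DESeq2, 16 with the block, 0 with the offsets and 3 without plastic control. Stripping on ACP gave 2, 4, 4, 3, 4 and 0 in LNCaP (reported: 1) and 1, 3, 3, 1, 1 and 1 in VCaP (reported: 0) under RLE, no filter, DESeq2, the block, the offsets and no plastic control. Stripping on plastic in MDAPCa2a (0) gave 7 without the filter, 4 by DESeq2 and 5 with the offsets. The surface contrast gave 3 in LNCaP in stripped medium without plastic control (reported: 5), 3 in LNCaP control medium with the offsets (reported: 6), and 5, 5, 8 and 5 in RWPE without the filter, by DESeq2, with the block and with the offsets (reported: 3). The androgen difference between VCaP and LNCaP (6) was 11 by DESeq2, and that between MDAPCa2a and LNCaP (0) was 1 with the offsets.

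Directions turned in 4 single values: ATF6 in LNCaP (-0.018) and ERN1 in MDAPCa2a (-0.12), each against RWPE in plastic control with the replicate block, SEC61B in the LNCaP surface contrast in control medium (-0.049 with the offsets), and SEC61G in MDAPCa2a against RWPE on ACP (0.056 with the offsets). The cause was not tested. With each library left out in turn, the counts ran from 0 to 6 (androgen, LNCaP), 6 to 20 (VCaP), 0 to 0 (MDAPCa2a) and 0 to 19 (RWPE androgen medium). Stripping gave 0 to 2 on ACP in LNCaP and in VCaP, 4 to 16 on plastic in LNCaP and 0 to 0 in MDAPCa2a. The surface gave 0 to 7 in LNCaP in both media, 0 to 1 in RWPE, and 0 to 0 in VCaP and MDAPCa2a. Against RWPE on ACP the ranges were 26 to 35 (LNCaP), 30 to 34 (VCaP) and 28 to 33 (MDAPCa2a), and in plastic control 23 to 27, 24 to 26 and 28 to 30. The androgen difference gave 2 to 11 for VCaP and 0 to 0 for MDAPCa2a. In pairs left with 1 library, that library is assumed to vary like the other groups.

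Replicate numbers are shared between groups, but the labels do not say that a number marks a shared culture or batch. Deviations of libraries with the same number correlated at -0.19 to 0.08 in RWPE (0 of 3 pairs of groups above 0.1), -0.22 to 0.45 in LNCaP (3 of 10), -0.47 to 0.26 in VCaP (2 of 6) and -0.40 to 0.58 in MDAPCa2a (2 of 6), so the block is given as an alternative only. The fewest reads were those of CREB3L1 in RWPE and LNCaP, with 1 to 69 per library. ERN1 had at least 39 reads and ERO1B at least 85 in each library, so counting error weighs more on these genes than on the others.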
